A study of Mus musculus with 16 samples.

Results

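RNA of B cells and plasma cells was followed in 16 mouse osteosarcomas through 9 genes picked by name from the 25054 genes of the raw count table. Of these, 5 mark B cells (*Cd79a*, *Cd79b*, *Ms4a1*, *Pax5* and *Cd22*) and 4 are most abundant in antibody-secreting plasma cells (*Igkc*, *Ighm*, *Jchain* and *Mzb1*), and 9 of 9 were found. The question was which tumors carry them and whether the genotypes differ in them. The 8 tumors called KO came from 8 mice with floxed *Arid1a* (Arid1afl/fl) in addition to floxed *Trp53* (p53fl/fl) and *Rb1* (Rb1fl/fl), and the 8 called WT came from 4 mice with the latter alleles only. Every mouse carried OsxCreERT2+/-, a tamoxifen-inducible Cre driven by *Osterix*, a gene of bone-forming precursor cells, so the deletions were not directed at B cells. All mice, of both sexes, had been given 400 µg of tamoxifen per gram of body weight at 1 month of age and were more than 6 months old. KO tumors are known by the name of the mouse (Massa, Medusa, Montana, Ohio, Prince, Grilka, Zelda and Oregon) and their labels give no site. WT tumors carry a mouse number and a site. Mouse N42 gave 4 of them (right pelvis, right femur, left limb and left shoulder), N43 gave 2 (spine and pelvis), N215 gave 1 from the right hind limb, and N25 gave 1 labeled lung.

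A B cell carries an antibody on its surface as a receptor, and *Cd79a* and *Cd79b* encode the pair of chains that pass its signal into the cell. When a B cell becomes a plasma cell, it switches off *Pax5* and most B cell surface genes and devotes its RNA to antibody chains. A bulk tumor sample that holds B cells therefore shows both groups of genes, whereas one that holds plasma cells alone can show antibody RNA with little B cell RNA. In these bulk samples fewer cells of a type and less RNA per cell cannot be told apart.

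Total counts per tumor ran from 1109487 to 15059640 in KO and from 7806160 to 16962329 in WT. Levels are given as CPM, that is, counts scaled to the same normalized library size in every tumor. A gene with 0 counts could still lie at up to 0.146 to 0.340 CPM in WT tumors, which is the value of 3 counts, and at up to 0.203 to 6.69 CPM in KO tumors, where Massa and Grilka were the shallowest. Such limits cover counting error only. *Arid1a* itself, counted over the whole gene, ranged from 107 to 270 CPM (median 179) in KO and from 125 to 236 CPM (median 166) in WT, so the groups overlapped and these counts do not check the genotype labels. The summed level of 8 osteoblast genes ran from 444 CPM in Prince to 54678 CPM in the left shoulder tumor of N42. The 6 lowest sums, 444 to 3153 CPM, were those of Massa, Montana, Prince and Oregon among KO tumors and of N215 and N25 lung among WT tumors.

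The DNA upstream of the start site was available for 4 of the 9 genes, from RefSeq for GRCm38.p6, and is shown for 3 of them because EBF1 and PAX5 act on such sequences in B cells. In 250 bases upstream, both strands were searched for the octamer ATGCAAAT bound by OCT factors, for CCCNNGGG, the core of a palindrome bound by EBF1, and for CAAGGGAAT, the letters of the EBF1 site known from the *Cd79a* promoter. The last was added after that promoter had been read. No pair of these motifs overlapped in the sequences shown, and capitals mark a match. *Cd79a* is shown for chr7:24897247-24897380 (plus strand), *Cd22* for chr7:30879029-30879176 (minus strand) and *Jchain* for chr5:88527898-88528147 (minus strand). In each case only the part where GENCODE vM21 has no exon of the gene is shown. The *Cd22* stretch lies inside the GENCODE span of that gene (30865402 to 30880342), so it is upstream of the RefSeq start only.
*Cd79a*: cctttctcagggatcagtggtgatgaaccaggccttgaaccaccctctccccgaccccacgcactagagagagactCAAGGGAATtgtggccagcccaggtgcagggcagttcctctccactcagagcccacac
*Cd22*: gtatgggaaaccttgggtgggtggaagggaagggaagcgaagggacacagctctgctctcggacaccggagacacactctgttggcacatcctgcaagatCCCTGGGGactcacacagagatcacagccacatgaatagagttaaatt
*Jchain*: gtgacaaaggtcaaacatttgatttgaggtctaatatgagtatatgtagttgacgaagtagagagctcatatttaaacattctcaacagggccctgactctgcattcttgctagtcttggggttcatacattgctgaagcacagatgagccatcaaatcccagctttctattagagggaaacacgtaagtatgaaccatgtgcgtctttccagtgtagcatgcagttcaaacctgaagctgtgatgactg
The octamer was in 0 of the 4 windows and in 1.60% of 32851 promoters of the same length. CCCNNGGG was in the *Cd22* window at -48 to -41 from the RefSeq start site and in 11.8% of all promoters. CAAGGGAAT was in the *Cd79a* window at -174 to -166 and in 0.225%. These are matches of letters and say nothing about binding in the tumors.

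Among the B cell genes, *Cd79a* and *Cd79b* were abundant in the same pair of tumors, Zelda (KO) and N25 lung (WT). *Cd79a* (chromosome 7, 24897381 to 24902197) lay between 0 and 69.9 CPM in KO tumors, with a median of 0.0830, and between 0.0590 and 13.7 CPM in WT tumors, with a median of 0.264. Zelda held 1031 counts, N25 lung 212 and N215 69, while no other tumor held more than 9. *Cd79b* (chromosome 11, 106311341 to 106314762) ranged from 0 to 84.8 CPM in KO (median 0.629) and from 0.330 to 12.97 CPM in WT (median 0.982). Its highest values were again in Zelda and N25 lung, and the other 14 tumors reached at most 1.70 CPM, so the ranges of the groups overlapped for both chains.

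*Ms4a1*, which encodes the B cell surface protein CD20, and *Pax5*, the transcription factor that maintains B cell identity, were almost absent elsewhere. *Ms4a1* (chromosome 19, 11249675 to 11266241) had 3203 counts in Zelda, 358 in N25 lung and 0 to 3 in each of the other 14 tumors. In CPM that was 217, 23.1 and at most 0.634. *Pax5* (chromosome 4, 44524757 to 44710487) had 1861 counts in Zelda, 249 in N25 lung and 0 to 5 in the others, or 126, 16.1 and at most 0.765 CPM. Zelda and N25 lung together held 99.4% of the *Ms4a1* CPM summed over the 16 tumors and 98.5% of the *Pax5* CPM. In Massa and Grilka a level like that of *Ms4a1* or *Pax5* in most tumors was not detectable at this depth.

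*Cd22*, an inhibitory co-receptor of B cells, was spread more widely. *Cd22* (chromosome 7, 30865402 to 30880342) had more than 3 counts in 12 of 16 tumors, including 8 of 8 WT tumors. In KO tumors it ranged from 0 to 116 CPM (median 1.00), and in WT tumors from 1.52 to 19.4 CPM (median 3.21). Zelda and N25 lung were again highest, and the other WT tumors lay between 1.52 and 4.88 CPM. The 6 tumors of N42 and N43 held 30 to 86 *Cd22* counts beside 1 to 9 *Cd79a* counts and 0 to 3 *Ms4a1* counts, whereas in Zelda there were 1.67 *Cd22* counts for each *Cd79a* count and in N25 lung 1.42. Ohio (KO) had 54 *Cd22* counts beside 7 of *Cd79a*. An antisense transcript, Gm29439, overlaps *Cd22* exons in the annotation, and whether the counting used strand is not given in the sources used here.

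**Figure D1:**
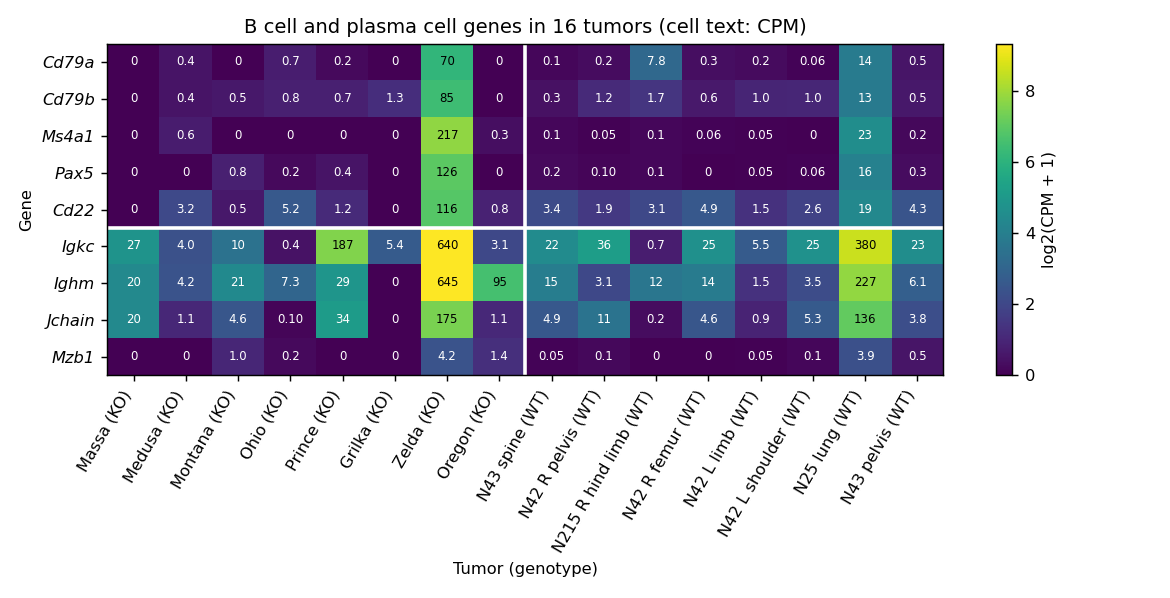
Level of each of the 9 genes (rows) in each of the 16 tumors (columns, KO to the left of the white line), colored by log2(CPM + 1) with the CPM written in each cell. Zelda and N25 lung stand out in every row, Prince in *Igkc* and *Jchain*, and Oregon in *Ighm*.

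The antibody genes were carried by more tumors than the B cell genes. *Igkc*, the constant part of the kappa light chain (chromosome 6, 70726435 to 70726966), had more than 3 counts in 16 of 16 tumors. It ranged from 0.382 CPM in Ohio to 640.1 CPM in Zelda among KO tumors (median 7.91) and from 0.681 CPM in N215 to 380.2 CPM in N25 lung among WT tumors (median 24.0). Prince (KO) followed with 187 CPM from 2253 counts. The 6 tumors of N42 and N43 lay between 5.45 and 35.6 CPM, and the 6 KO tumors other than Zelda and Prince between 0.382 and 26.8 CPM, the latter value being 12 counts in the shallow library of Massa. *Jchain*, which links IgA and IgM units into polymers (chromosome 5, 88519809 to 88527891), ranged from 0 to 175 CPM in KO (median 2.85) and from 0.227 to 136 CPM in WT (median 4.75). It was highest in Zelda (2586 counts), N25 lung (2105) and Prince (409).

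*Jchain* and *Igkc* ranked the tumors alike, with a Spearman rho of 0.94 over 16 tumors and of 0.90 over the 14 tumors without Zelda and N25 lung. *Igkc* and *Cd79a* did not, with a rho of 0.13 over 16 tumors and -0.30 over 14. Not all pairs followed the division into B cell and plasma cell genes. Within the plasma cell genes, *Igkc* and *Ighm* had a rho of 0.39 over 16 tumors and 0.09 over 14. Within the B cell genes, *Cd79b* and *Ms4a1* had 0.14 and -0.30. Across the division, *Pax5* and *Mzb1* had 0.70 and 0.54. These values describe tumors that share mice and differ in depth.

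*Ighm*, the heavy chain of IgM (chromosome 12, 113418558 to 113422730), is used by resting B cells as well as by plasma cells. It ranged from 0 to 645 CPM in KO (median 20.4) and from 1.52 to 227 CPM in WT (median 8.84). Zelda (9515 counts) and N25 lung (3513) were highest. Oregon (KO) followed with 94.5 CPM from 338 counts beside only 11 counts of *Igkc*, and N215 and Ohio likewise held 102 and 76 *Ighm* counts beside 6 and 4 of *Igkc*. In Zelda there were 1.01 *Ighm* counts for each *Igkc* count, in N25 lung 0.596 and in Prince 0.153.

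*Mzb1*, a chaperone of the endoplasmic reticulum that helps to assemble IgM (chromosome 18, 35647267 to 35649367), was low everywhere. Zelda had 62 counts, N25 lung 60, and no other tumor more than 9. KO tumors ranged from 0 to 4.20 CPM (median 0.0954) and WT tumors from 0 to 3.87 CPM (median 0.0865). In Prince, with 409 *Jchain* counts, *Mzb1* had 0 counts, which allows up to 0.249 CPM. Another annotated gene, SPATA24, overlaps *Mzb1* exons on the same strand.

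Taken tumor by tumor, a tumor was called high in a gene when its CPM was at least 4 times the median of the 16 tumors and it held more than 3 counts. Zelda was high in 9 of 9 genes, against 11.8% of all 25054 genes, and N25 lung in 9 of 9, against 14.8%. Zelda had the highest and N25 lung the second highest level of 9 of 9 genes, which held for 2.55% of all genes. For *Mzb1* that order was within counting error, the ratio of Zelda to N25 lung being 1.09 with a 95% interval of 0.749 to 1.58. Prince was high in 2 of 9 genes, *Igkc* and *Jchain*, against 12.4% of all genes, and its 5 B cell genes summed to 2.49 CPM from 30 counts. N215 was high in *Cd79a* alone, Oregon in *Ighm* and *Mzb1*, Massa in *Jchain*, and Montana and the pelvis tumor of N43 in *Mzb1*. These last calls for *Jchain* and *Mzb1* rest on 4 to 9 counts each.

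N215 held 69 *Cd79a* counts beside 15 of *Cd79b*, 1 of *Ms4a1*, 1 of *Pax5* and 6 of *Igkc*. *Spib*, a transcription factor of B cells and plasmacytoid dendritic cells that was singled out after its values were seen, had 303 counts there, or 34.4 CPM, against 33.8 CPM in Zelda, 7.75 CPM in N25 lung and at most 1.27 CPM in the other 13 tumors. *Arhgef1*, which begins 714 bases from *Cd79a* on the same strand, had 1015 counts in N215, within its range of 113 to 2538 over the 16 tumors.

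The lists of other B cell genes differed in how many members shared the order of Zelda first and N25 lung second. It held for 9 of 11 further surface genes, 2 of 10 receptor signaling genes, 1 of 7 transcription factors, 2 of 5 germinal center genes and 0 of 2 precursor genes, where 2.55% of all genes had it. Of the 11 surface genes, 10 were highest in Zelda, against 10.5% of all 25054 genes. *Cr2*, the complement receptor CD21, had 7365 counts in Zelda, 450 in N25 lung and 0 to 3 in each other tumor. *Cd37*, a tetraspanin of mature B cells, had 69.9 CPM in Zelda and 17.6 CPM in N25 lung, and the other tumors reached at most 8.02 CPM. The exception was *Fcgr2b*, an inhibitory Fc receptor that macrophages carry as well, which was highest in the right pelvis tumor of N42 (157 CPM) and stood at 48.6 CPM in Zelda.

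Of 10 genes that signal below the B cell receptor, 9 were highest in Zelda, 5 were high there by the 4-fold rule and 2 were high in N25 lung. Over all 25054 genes, 10.5% were highest in Zelda, 11.8% were high there and 14.8% were high in N25 lung. Whether the smaller counts on these short lists exceed such shares was not tested. *Lyn* and *Syk*, kinases shared with myeloid cells, had 200.3 and 202 CPM in Zelda and 100.4 and 66.6 CPM in N25 lung, while the N42 tumors lay between 106 and 135 CPM for *Lyn* and between 58.0 and 105 CPM for *Syk*. Of 7 transcription factors of B cells, 2 were highest in Zelda, 4 were high there and 3 were high in N25 lung. *Ebf1*, which bone marrow stroma also uses, had 171 CPM in Zelda, 26.2 CPM in N25 lung and 192 CPM in Ohio. Of 2 precursor B cell genes in the table, *Vpreb3* had 143 counts in N25 lung and 21 in Zelda, and *Dntt* had at most 7 counts, in Zelda. *Vpreb1*, *Igll1* and *Rag1* were not analysed here. Of 5 germinal center genes 2 were highest in Zelda, and *S1pr2*, the most abundant, stood at 5.36 CPM in Zelda and 21.6 CPM in N25 lung.

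The proportion of B cell to plasma cell RNA differed between Zelda and N25 lung. The 5 B cell genes were 5.11 to 9.40 times as high in Zelda as in N25 lung in CPM, while the 4 plasma cell genes were 1.09 to 2.85 times as high, and no interval of the first group reached into the second. The ratio was 5.11 (95% counting interval 4.40 to 5.95) for *Cd79a* and 9.40 (8.43 to 10.5) for *Ms4a1*, but 1.68 (1.63 to 1.74) for *Igkc* and 1.29 (1.22 to 1.37) for *Jchain*. *Ighm* lay between them at 2.85 (2.74 to 2.96). The 11 further surface genes had a median ratio of 5.84, within a range from 1.68 (*Fcgr2b*) to 17.2 (*Cr2*), and 9 genes of the plasma cell program a median of 1.18. The latter ran from 0.0898 for *Sdc1*, which epithelial cells carry too, to 3.66 (3.06 to 4.41) for *Irf4*, a transcription factor that B cells use as well, with *Xbp1*, which drives secretion, at 0.938. Lung marker genes summed to 29165 CPM in N25 lung and 38.5 CPM in Zelda. The part of lung tissue in the ratios of the program genes was not tested. The 10 other antibody constant genes had a median of 2.35 and reached into the range of the B cell genes, from 0.461 for *Ighe* and 0.599 for *Ighg2b* to 6.60 for *Iglc2*, 7.84 for *Ighg3* and 8.71 for *Ighd*. Each tumor is 1 library, so the intervals compare these libraries and not the genotypes.

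**Figure D2:**
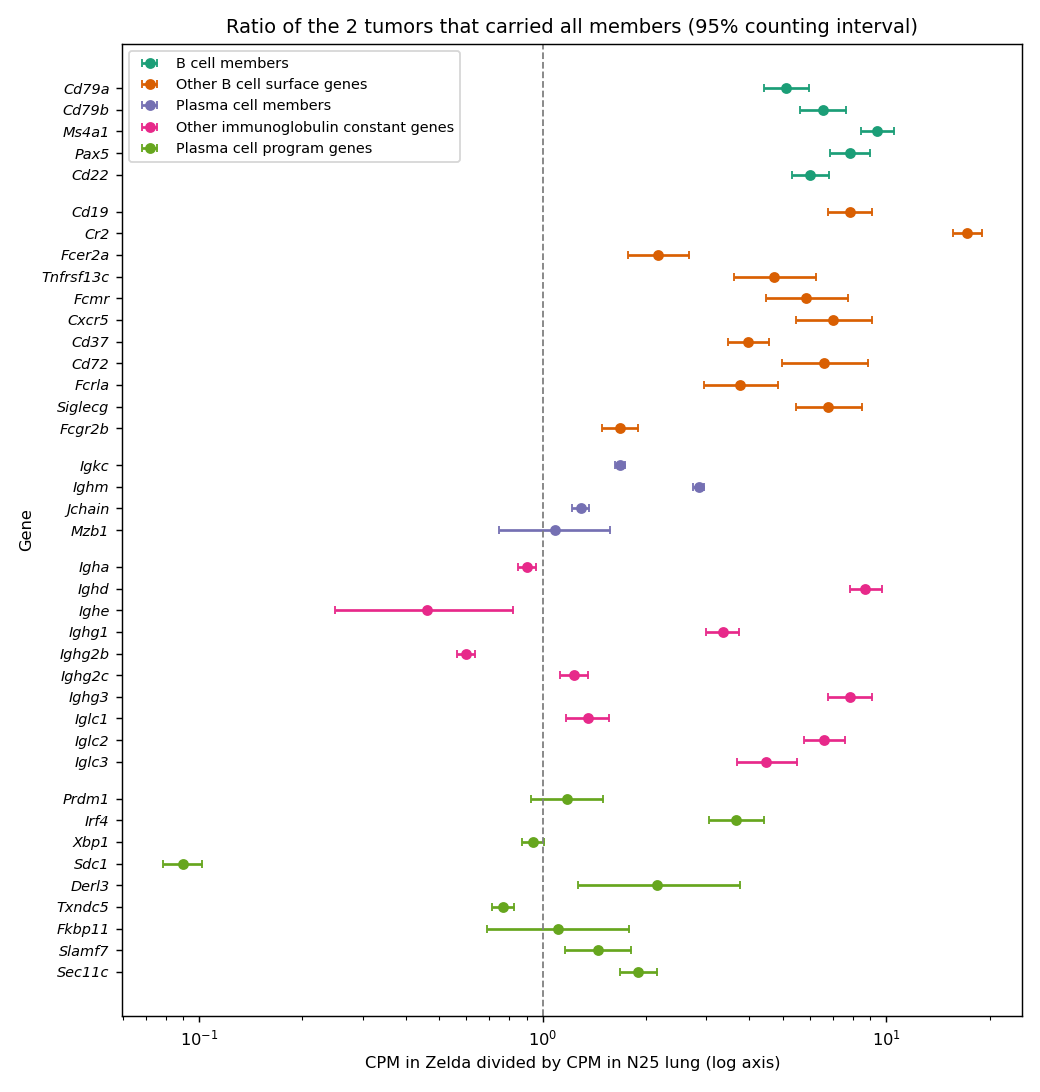
CPM in Zelda divided by CPM in N25 lung (horizontal log axis) for genes with more than 3 counts in both, with 95% counting intervals and a dashed line at a ratio of 1. The B cell members lie between 5.11 and 9.40 and the plasma cell members between 1.09 and 2.85.

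Among the heavy chain constant genes, the tumors differed in class. In Zelda, *Ighm* took 46.9% (Wilson 95% interval 46.2 to 47.6) of 20279 heavy chain constant counts, *Ighd*, which naive B cells express beside IgM, 15.7% (15.2 to 16.2), the 4 *Ighg* genes together 27.6% and *Igha* 9.71%. In N25 lung, *Ighm* took 33.1% (32.2 to 34.0) of 10622 counts, *Ighd* 3.61% (3.27 to 3.98), the *Ighg* genes 41.3% and *Igha* 21.6%. In Prince, *Igha*, the heavy chain of the antibody secreted at mucosal and glandular surfaces, took 86.4% (85.3 to 87.3) of 4675 counts, *Ighm* 7.36% and *Ighd* 0.171%.

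*Igha* also had more counts than any other single heavy chain gene in the N42 and N43 tumors, although in the right femur tumor of N42 it exceeded *Ighm* only by 259 to 244 counts. Its share there ran from 31.5% (28.4 to 34.8) in the right femur tumor of N42 to 77.2% (74.7 to 79.4) in the right pelvis tumor of the same mouse, so tumors of 1 mouse differed beyond counting error. *Ighd* had 0 to 7 counts in each of these 6 tumors. In Oregon *Ighm* took 90.4% of 374 counts and in N215 90.3% of 113. In Montana *Ighm* took 60.4% (52.0 to 68.3) of 134 counts and *Igha* 31.3% (24.1 to 39.6). The other 4 tumors held 6 to 87 heavy chain counts each. Among light chains, *Igkc* took 79.1% (78.4 to 79.8) of the constant counts in Zelda, 89.3% (88.5 to 90.0) in N25 lung, 96.9% (96.2 to 97.6) in Prince and 91.6% to 97.8% in the N42 and N43 tumors, the rest being the lambda genes. Antibody genes of 1 family are near copies of each other, so reads can be split between them, which adds an error that the intervals do not hold.

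**Figure D3:**
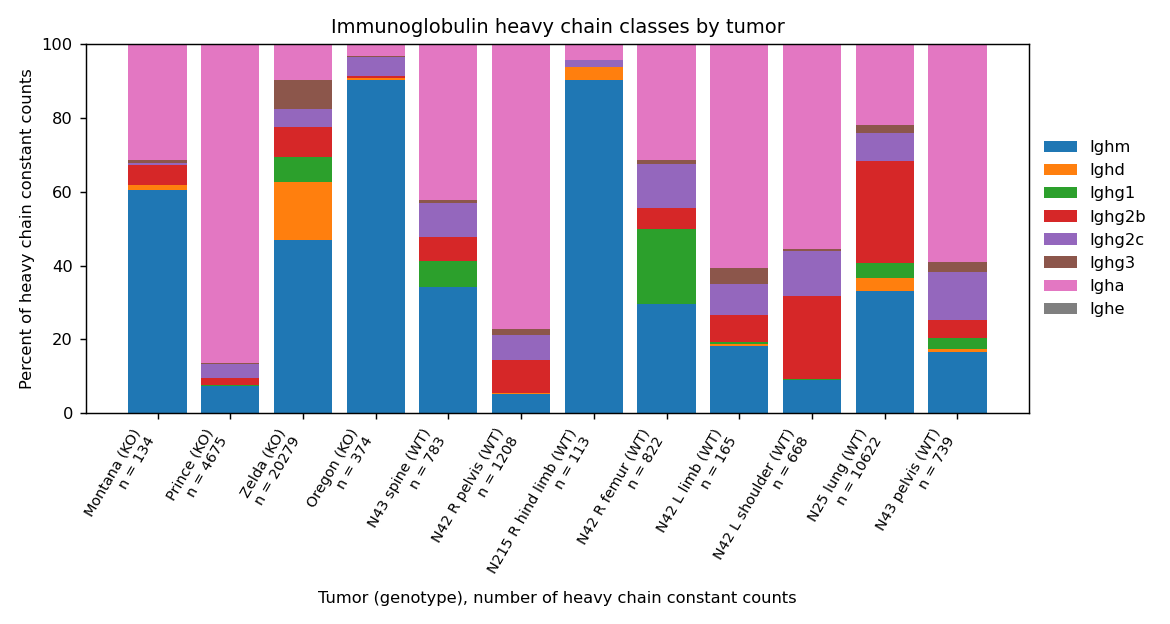
Share of each heavy chain class (stacked, percent of heavy chain constant counts) in the 12 tumors with at least 100 such counts, with the number of counts under each bar. *Igha* fills 86.4% of the bar of Prince, and *Ighd* is visible mainly in Zelda, at 15.7%.

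Antibody variable genes were counted next, since many of them in 1 sample come from many B or plasma cell clones. Of 179 variable genes in the table, 177 had more than 3 counts in Zelda, 141 in N25 lung and 96 in Prince. The N42 and N43 tumors had 7 to 52 such genes, and the other 7 tumors 0 to 4. The most abundant variable gene took 3.83% of 12644 variable counts in Zelda (Igkv3-2), 5.05% of 6991 in N25 lung (Ighv6-3) and 4.67% of 2248 in Prince (Igkv1-110), so no single gene made up most of the variable counts in these tumors. Oregon and N215, with 338 and 102 *Ighm* counts, held 2 and 3 variable counts in all. The smallest total of any gene in the table was 6 counts, so variable genes without counts in these tumors are not among the 179. Zelda had the most variable counts, so its 177 of 179 was partly set in advance. The number of genes found rises with the number of counts and was not compared further.

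Among genes of the plasma cell program, *Txndc5* (315 CPM) and *Xbp1* (297 CPM) were highest in Prince, while Zelda stood at 84.1 and 89.5 CPM and N25 lung at 110.0 and 95.5 CPM. Gland epithelium secretes protein too and uses both genes. Of 10 genes in this list, 2 were highest in Zelda, where 10.5% of all genes were. Of 7 genes for ligands that keep B cells alive or guide them, 2 were highest there as well. Whether these counts exceed that share was not tested. *Cxcl13*, a chemokine that draws B cells into follicles, had 31.1 CPM in Zelda, 31.0 CPM in the right femur tumor of N42 and 3.29 CPM in N25 lung. *Cxcl12*, which holds B cells in bone marrow, was highest in the pelvis tumor of N43 (362 CPM), with 117 CPM in Zelda and 204 CPM in N25 lung, and *Tnfsf13b*, the survival factor BAFF, was highest in Medusa (54.7 CPM), with 11.5 and 14.2 CPM in these tumors. *Ltb*, a lymphotoxin of lymphocytes, had 26.6 CPM in Zelda, 7.81 CPM in N25 lung and at most 1.41 CPM elsewhere.

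Genes of some other marker lists were also high in Zelda, N25 lung or Prince, but no macrophage, skeletal muscle or osteoblast gene was. In N25 lung, 3 of 8 neutrophil genes and 1 of 6 liver genes were high. Over all genes, 10.5% were highest in Zelda, 14.8% were high in N25 lung and 12.4% were high in Prince. In Zelda, 11 of 11 T cell genes were highest of the 16 tumors (summed 189 CPM, against 43.1 in N25 lung and 1.34 to 15.2 elsewhere), as were 8 of 8 neutrophil genes, 6 of 7 erythroid genes and 6 of 6 liver genes. *Slc4a1*, the anion exchanger of red cells, had 10022 counts in Zelda, and *Alb*, the albumin of liver cells, had 12918 counts there and at most 14 in any other tumor. In N25 lung, 10 of 10 lung genes were high, with *Scgb1a1* of airway club cells at 19715 CPM and a lung sum of 29165 CPM. Massa had a lung sum of 12236 CPM with 0 counts of the 5 B cell genes. Prince had 10 of 10 salivary gland genes high, with a sum of 14983 CPM against at most 108 CPM in the other tumors.

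Erythroid RNA was not always accompanied by B cell RNA. The spine and pelvis tumors of N43 had erythroid sums of 481 and 304 CPM, N25 lung 370 CPM and Zelda 1444 CPM, while the 5 B cell genes summed to 4.07 and 5.67 CPM in the N43 tumors, 85.2 CPM in N25 lung and 615 CPM in Zelda. Macrophage genes summed to 505 CPM in Zelda and 296 CPM in N25 lung, below the 1049 to 1745 CPM of the N42 and N43 tumors. Among 4 plasmacytoid dendritic cell genes, *Siglech* had 69 counts in Zelda, 55 in N25 lung, 54 in Prince and at most 8 elsewhere, and *Cox6a2*, which skeletal muscle expresses as well, was highest in Oregon and Montana, where 8 muscle genes summed to 130349 and 75179 CPM. The part of these tissues and cells in the levels of the 9 genes was not tested.

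**Figure D4:**
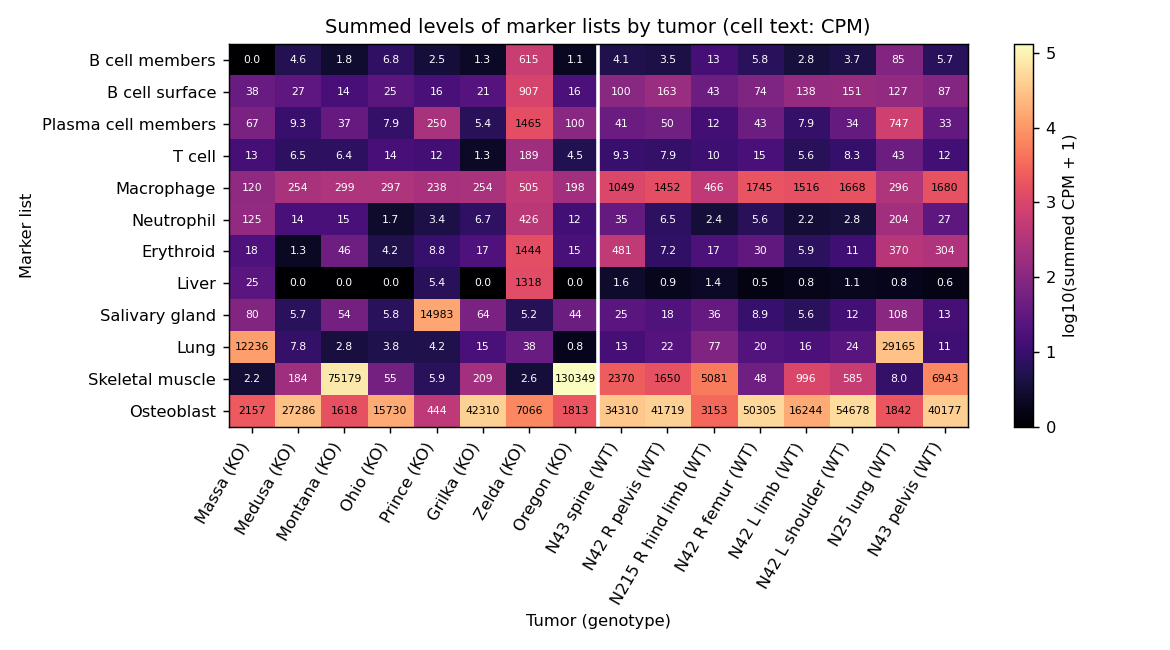
Summed CPM of marker lists (rows) in each tumor (columns, KO to the left of the white line), colored by log10(summed CPM + 1). Zelda is brightest for B cell, T cell, erythroid and liver genes, N25 lung for lung genes and Prince for salivary gland genes.

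KO and WT tumors were then compared. In edgeR's quasi-likelihood test over 15413 genes, 4 of the 9 genes passed the filter on low counts, and 0 of these 4 passed an adjusted p of 0.05, against 4.01% of all genes tested (1.86% higher and 2.15% lower in KO). None of the 4 had an unadjusted p under 0.05. DESeq2 called 0 of the 7 members to which it gave an adjusted p, where it called 2517 of 20078 genes. *Ighm* had an unadjusted p of 0.0309 in DESeq2 (adjusted p = 0.138). In limma-voom 0 of 4 members passed, where only 17 of 15413 genes did, so that count decides nothing about the members. In KO tumors *Ighm* averaged 103 ± 221 CPM and in WT tumors 35.1 ± 77.6 CPM (SD over 8 tumors each). The edgeR estimate on the log2 scale was 1.56 (SE 1.22, adjusted p = 0.470). The corresponding log2 fold changes were 1.70 (SE 1.07, edgeR adjusted p = 0.354) for *Cd22*, 0.78 (SE 1.26, edgeR adjusted p = 0.757) for *Igkc* and 0.54 (SE 1.28, edgeR adjusted p = 0.844) for *Jchain*, beside a median of 0.10 over all genes tested.

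The sign of these values turned when Zelda was left out. Without it the log2 fold change was -1.45 for *Cd22*, -0.90 for *Igkc*, -0.47 for *Ighm* and -1.29 for *Jchain*. Without N25 lung it was 2.43, 2.50, 3.74 and 2.79. In either case 0 members were called, and *Ighm* without N25 lung came nearest (edgeR adjusted p = 0.0612). With both left out the values were -0.65, 0.83, 1.76 and 0.98. In each group the SD exceeded the mean for these 4 genes. The 4 N42 and 2 N43 tumors share a mouse, so a test that counts tumors as replicates gives p-values that are too small.

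The 5 genes with too few counts for the fit were compared by two-sided exact permutation tests of mean log2 CPM over the 16 tumors. KO minus WT was -0.62 for *Cd79a* (exact permutation p = 0.687), -0.38 for *Cd79b* (p = 0.745), 0.42 for *Ms4a1* (p = 0.729), 0.48 for *Pax5* (p = 0.671) and 0.36 for *Mzb1* (p = 0.664). The groups overlapped in every gene. For *Cd79a* the sign depended on the scale and on the tool. Its mean was 8.90 ± 24.7 CPM in KO and 2.86 ± 5.12 CPM in WT (SD, n = 8 each), while its mean log2 CPM was lower in KO. The edgeR log2 fold change without the low-count filter was 1.80, but the DESeq2 value was -2.12. Why these tools differed was not tested.

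**Figure D5:**
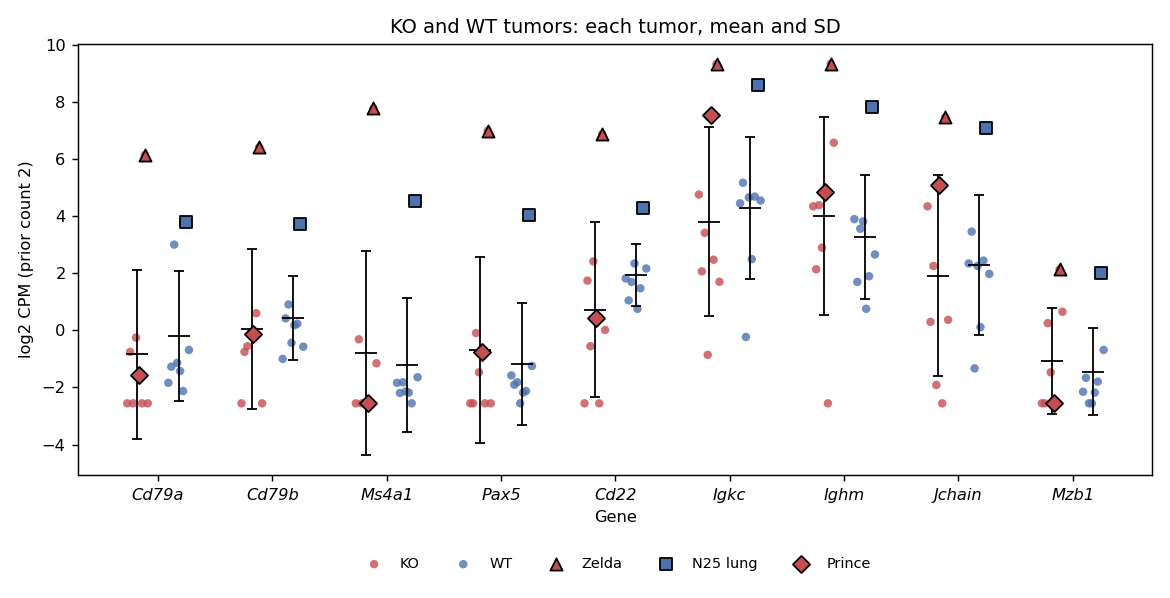
log2 CPM (prior count 2) of the 9 genes in KO (red) and WT (blue) tumors, each point 1 tumor, with the mean and SD of the 8 tumors of each group in black. Zelda (triangle) and N25 lung (square) top their groups for every gene, and the remaining points of the groups overlap.

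In the same fit the other lists of B cell biology held few calls. Among the further surface genes 3 of 11 were tested and *Fcgr2b* was lower in KO (log2 fold change -2.56, SE 0.50, edgeR adjusted p = 0.0114), at 15.2 ± 14.4 CPM against 90.5 ± 48.6 CPM in WT (SD, n = 8 each). Among plasma cell program genes 8 of 10 were tested and *Sdc1*, or CD138, was lower in KO (-1.86, SE 0.40, edgeR adjusted p = 0.0159), at 35.1 ± 22.9 CPM against 127 ± 47.7 CPM in WT (SD, n = 8 each). Both calls held in 22 of 26 alternatives and were lost in the 4 that took the mouse into account or left out the N42 tumors, with edgeR or limma-voom adjusted p of up to 0.416 for *Fcgr2b* and 0.494 for *Sdc1*. In those 4 the log2 fold change was -2.22 to -1.87 for *Fcgr2b* and -2.14 to -1.61 for *Sdc1*. Neither had the members' order of tumors, since *Fcgr2b* was highest in the right pelvis tumor of N42, and *Sdc1* was highest in N25 lung (190.4 CPM) but stood at 17.1 CPM in Zelda. Beside these, 7 of 8 macrophage genes passed as lower in KO in edgeR (median log2 fold change over the list -2.16), against 2.15% of all genes tested. In limma-voom 0 of 8 passed, where 17 genes passed over the whole table. The part of macrophages in the *Fcgr2b* value was not tested.

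In edgeR no gene passed among 9 tested receptor signaling genes (median log2 fold change -0.04), 5 transcription factors (0.54), 3 other antibody constant genes (0.36), 5 survival and homing ligands (-0.54), 3 T cell genes (0.59) and 1 germinal center gene (-0.88). The same was true of 3 neutrophil genes (0.90), 3 erythroid genes (-0.20), 2 salivary gland genes (2.45), 2 lung genes (0.33), 8 skeletal muscle genes (3.48), 8 osteoblast genes (-1.06) and 1 plasmacytoid dendritic cell gene (2.81). Of the 53 genes tested in these 13 lists, 7 had an unadjusted p under 0.05 in edgeR, where 3546 of all 15413 genes tested (23%) had one. DESeq2 called 7 of 87 genes of these lists to which it gave an adjusted p, where it called 12.5% of 20078 over all genes, and limma-voom called 0. No precursor B cell, lymphoid tissue or liver gene had enough counts to be tested.

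Per kilobase of exon, *Igkc* was the most abundant of the 9 genes in Zelda, at 1203 CPM per kilobase, followed by *Ighm* at 342 and *Jchain* at 69.7. The B cell genes followed with *Cd79b* at 59.2, *Cd79a* at 48.0, *Ms4a1* at 35.1, *Cd22* at 23.1 and *Pax5* at 14.3, and *Mzb1* was lowest at 3.46 CPM per kilobase. In N25 lung the first 3 were the same, at 715, 120.2 and 54.0 CPM per kilobase, and *Cd79a* came next at 9.39. In Prince *Igkc* stood at 352, *Ighm* at 15.1 and *Jchain* at 13.5 CPM per kilobase. *Cd79b*, the highest of the B cell genes there, stood at 0.522.

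Genes whose levels ranked the tumors like the members were sought among the other 15409 genes tested. With the mean log2 CPM of the 5 B cell genes, the highest Spearman rho over 16 tumors were those of Gm48335 (0.92), Gm37494 (0.91), *Zfp719* (0.91), Gm43196 (0.91) and *Lpar6* (0.90), and the next 5 were Gm49058, *Zfp62*, Gm44292, Gm44639 and *Mmp25* (0.88 to 0.89). Of these 10, 4 were highest in Zelda. In 14 of the 16 tumors B cell counts were few, and the mean of the 5 genes had a rho of 0.43 with the normalized library size, whose part in this order was not tested. With the 4 plasma cell genes the highest rho was that of *Tspan13* (0.94), and *Bicdl1* (0.91), *Tom1l1* (0.91), *Sorl1* (0.90), *Cradd*, *Crebl2*, *Astn2*, *Kcna2* and *Rasgrf2* (the last 5 at 0.89 to 0.90) were also among the highest. None of these named genes was highest in Zelda. The known B cell genes with counts in almost only Zelda and N25 lung, such as *Cr2*, were too low elsewhere to enter this search.

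Counts of some annotated genes near the members follow, and whether reads of a neighbor entered the count of a member was not tested. Gm29439, Gm12462 and SPATA24, which overlap exons of *Cd22*, *Pax5* and *Mzb1*, were not analysed here. 5730488B01Rik, which overlaps *Pax5* exons on the opposite strand, had 10 counts in Zelda, 3 in N25 lung and 0 elsewhere. *Ighd*, 2233 bases from *Ighm*, had 3174 counts in Zelda and 383 in N25 lung and 0 to 8 in the other 14 tumors, including 2 in Oregon, where *Ighm* had 338. Gm30211 spans *Igkc* on the same strand and had 266 counts in Zelda, 36 in N25 lung and 0 to 6 elsewhere. The 5 kappa joining segments next to *Igkc* had 45 to 113 counts each in Zelda, 10 to 14 in N25 lung and at most 3 elsewhere. *Ffar1*, 3837 bases from *Cd22*, had 98 counts in Zelda, 20 in N25 lung and 0 to 2 elsewhere, whereas *Scn4a*, a sodium channel of muscle that lies 3829 bases from *Cd79b*, was highest in Oregon with 2925 counts, where *Cd79b* had 0.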

How the data were processed

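RNA of 16 tumors was sequenced after ribosomal RNA removal (50-cycle single reads). The authors aligned reads with Novoalign (2.08.01) to mm10 with Ensembl transcript models, allowing several alignments per read, and deposited raw counts per gene. Replicates were not pooled. From these counts, edgeR 4.0.16 (TMM, filterByExpr with a count minimum of 10 and a total of 15, quasi-likelihood test, Benjamini-Hochberg over all genes tested) compared 8 KO with 8 WT tumors without covariates. CPM used the normalized library of that fit. Members left out by the filter had exact permutation tests. DESeq2 1.42.0, limma 3.58.1, other filters, scalings and sets of tumors were tried as alternatives. The fit was tested on simulated counts. Shares have Wilson intervals, ratios of counts exact ones. Named were all 9 members, up to 3 most abundant genes of each other list, genes past the threshold, the 10 genes most alike for each member group (1 of which is not reported here), genes within 5000 bases of a member, the leading variable genes, and *Spib*, singled out after its values were seen. Positions are from GENCODE vM21 (GRCm38), which is not the annotation used for counting. Members and lists were chosen with earlier results of these data known.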

Additional observations from a re-analysis of the deposited data

Results flagged for a closer look

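In groups of 8 tumors, the highest or lowest log2 CPM was tested for a gap from the others (Dixon's test). In 18 groups (9 genes in KO and in WT) 10 gaps passed, where about 1 in 20 would pass for independent, normally distributed values. That rate does not hold here, since the 8 WT tumors came from 4 mice and tumors with 0 counts of a gene share the same log2 CPM. Zelda stood above the other KO tumors, with a gap given as a share of the range of the group, in *Cd79a* (0.735), *Cd79b* (0.648), *Ms4a1* (0.783) and *Pax5* (0.742). N25 lung stood above the other WT tumors in *Cd79b* (0.596), *Ms4a1* (0.871), *Pax5* (0.801), *Cd22* (0.552), *Ighm* (0.556) and *Mzb1* (0.591). For *Ms4a1* the log2 CPM was 7.76 in Zelda against -0.32 in the next KO tumor, and 4.54 in N25 lung against -1.64 in the next WT tumor. Genes measured in the same tumors are not independent, so these gaps describe 2 tumors.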

How the results depend on the processing

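The number of members past the threshold was 0 in all 26 alternatives, with or without any single tumor. No call could therefore be lost, but several directions turned without any value passing the threshold. Among the 4 genes in the fit, *Cd22* was -0.56 in DESeq2 and -0.60 in limma-voom, where mouse was a random effect. The latter also gave -0.16 for *Igkc* and -0.15 for *Jchain*. *Jchain* was -0.21 with counts summed per mouse, -0.26 with 1 tumor per mouse and -0.20 without the N42 tumors. Leaving out each tumor in turn gave -1.45 (Zelda) to 2.43 (N25 lung) for *Cd22*, -0.90 to 2.50 for *Igkc*, -0.47 to 3.74 for *Ighm* and -1.29 to 2.79 for *Jchain*. The permutation differences then ran from -1.62 to -0.05 for *Cd79a*, -1.29 to 0.085 for *Cd79b*, -0.81 to 1.24 for *Ms4a1*, -0.62 to 1.22 for *Pax5* and -0.10 to 0.86 for *Mzb1*, the ends again being Zelda and N25 lung. Chosen after seeing the data, leaving out Zelda and N25 lung gave -0.65 for *Cd22*, and leaving out Prince as well gave -0.51 for *Cd22*, -1.41 for *Igkc*, -0.40 for *Jchain* and -0.049 for *Pax5*. The causes were not tested. Over all genes, 618 were called, against 628 with other size factors, 679 without the low-count filter, 2517 by DESeq2, 17 by limma-voom and 10 with counts summed per mouse. No paired analysis was possible because no mouse gave tumors to both groups and replicate numbers only name tumors. Depth limits low genes most in Massa and Grilka, where 3 counts are 6.69 and 4.03 CPM.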
